A study of Mus musculus with 8 samples.

Results

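The genes described here are the ligands and receptors of the TNF superfamily: every protein-coding gene whose mouse symbol begins with Tnfsf or Tnfrsf followed by a digit, together with Tnf, Lta, Ltb, Ltbr, Cd40, Cd40lg, Cd27, Cd70, Fas and Fasl. The rule found 41 genes, 17 ligands and 24 receptors, of 52784 genes in the table and of 25066 with a count in at least 1 library. Their RNA was measured by RNA-seq in trafficked maternal cells and in recipient cells of pups aged 1 week, after intrauterine transplantation (IUT) or without it. The study asked how transient depletion of maternal dendritic cells (DC) before IUT alters cells that traffic from mother to fetus and the recipient's own cells.

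All pups were F1, sired by BALB/c males and born to CD11c-DTR dams, a line of B6 background in which the CD11c (Itgax) promoter drives the diphtheria toxin receptor, so that diphtheria toxin (DT) removes CD11c+ cells for a short time. The 4 treatments were uninjected, DC control mIUT, DC control pIUT and DC-depleted pIUT. In mIUT the fetus received 5000000 bone marrow mononuclear cells of B6 mice, the maternal strain, and in pIUT the same number from BALB/c mice, the paternal strain, both into the liver on embryonic day 14. DC-depleted dams were given DT at 5 ng/g on embryonic day 13, and DC control dams were given saline. Uninjected controls came from litters of dams given DT or saline, and the labels do not divide them. Maternal cells were sorted by H2K-b and recipient cells by H2K-d. F1 cells carry both haplotypes, B6 donor cells carry H2K-b and BALB/c donor cells carry H2K-d, so the sort alone does not part donor cells from maternal cells in mIUT or from recipient cells in pIUT.

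Ligands of this family are mostly trimers held in the membrane or shed from it, and they bind receptors with cysteine-rich repeats in the part outside the cell. Some receptors carry a death domain that can lead to apoptosis, while others recruit TRAF adaptors that activate NF-kappaB. In blood-forming and lymphoid tissue the family serves inflammation, the building of lymphoid organs, B-cell survival, costimulation of T cells and the removal of activated lymphocytes.

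Each of the 8 groups is 1 library of cells pooled over pups, so no difference between groups has a replicate check, no p value is given for it, and it compares libraries and not conditions. The study pooled more uninjected pups than pups of any treatment. Total estimated counts ran from 38543457 to 47965130. The libraries differed more in content than in depth. Genes with at least 10 counts numbered 9125 in the recipient uninjected library, 10016 in maternal DC control mIUT and 13009 to 16231 in the other 6. Of genes at 10 CPM or more in all other libraries, 5.93% had 3 or fewer counts in the recipient uninjected library and 3.70% in maternal DC control mIUT, against 0 to 0.511% elsewhere. The sorted cells were a mixture, in which markers of erythroid cells (8 genes) summed to 156 CPM in recipient mIUT and to 146484 CPM in maternal DC-depleted pIUT. In a bulk sample, fewer cells of a type and less RNA per cell cannot be told apart.

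CPM is the count scaled to a library of 1000000 after adjusting each library by its TMM factor. CPM values below are given in the order uninjected, DC control mIUT, DC control pIUT and DC-depleted pIUT, for maternal and then for recipient cells. A listed 0 means 0 counts, which allows up to 3 counts, or 0.0547 to 0.105 CPM depending on the library. Fold changes against a library at 0 counts are computed against 3 counts and given as "at least". Where the lower library had 1 to 3 counts the ratio is given with its 95% interval, which covers counting error only. A gene was tested in a comparison where either library had at least 10 counts, and is called higher or lower when the libraries differed by at least 4-fold. A gene with 3 or fewer counts in 1 of the libraries entered through the other alone, and could be called in 1 direction only.

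The members differed widely in how far they were detected. In all 8 libraries, 11 members reached 10 counts (Ltb, Ltbr, Tnfrsf1a, Tnfrsf1b, Tnfrsf12a, Tnfrsf13b, Tnfrsf13c, Tnfrsf18, Tnfrsf21, Tnfrsf23 and Tnfrsf26). Ltb was the single ligand among these 11. The ligands Tnfsf4 and Tnfsf18 and the receptor Tnfrsf17 reached 10 counts in no library, and Cd70, Tnfsf15 and Tnfrsf11b in 1, recipient DC-depleted pIUT. Members with at least 10 counts numbered 30, 21, 21 and 26 in maternal cells and 17, 26, 32 and 36 in recipient cells. Per kb of exon, and as a mean over libraries, the leading ligands were Ltb at 149.8 CPM per kb, Tnf at 38.4 and Tnfsf14 at 16.4. The leading receptors were close together, with Tnfrsf13b at 24.5 CPM per kb, Tnfrsf1a at 24.1 and Tnfrsf18 at 21.9, and the order of the first 2 turned when the longest transcript was used as the length. Single libraries weighed on these means. Without maternal uninjected cells Ltb came to 81.2 CPM per kb, Tnfrsf1a led the receptors at 25.7, ahead of Ltbr at 17.2, and Tnfrsf18 was no longer among the first 6. Without maternal DC control pIUT Tnf came to 14 CPM per kb, below Tnfsf14 at 16.4, and without maternal mIUT Tnfsf14 came to 9.72. Without recipient mIUT Tnfrsf18 led the receptors at 24.5, and Tnfrsf1a came to 17.2. The summed CPM of all 41 members was 2139, 1127, 905 and 133 in maternal cells and 875, 1114, 664 and 622 in recipient cells. Maternal DC-depleted pIUT was thus the library with the least RNA of this family, although it held more genes at 10 counts than maternal DC control pIUT.

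**Figure D1:**
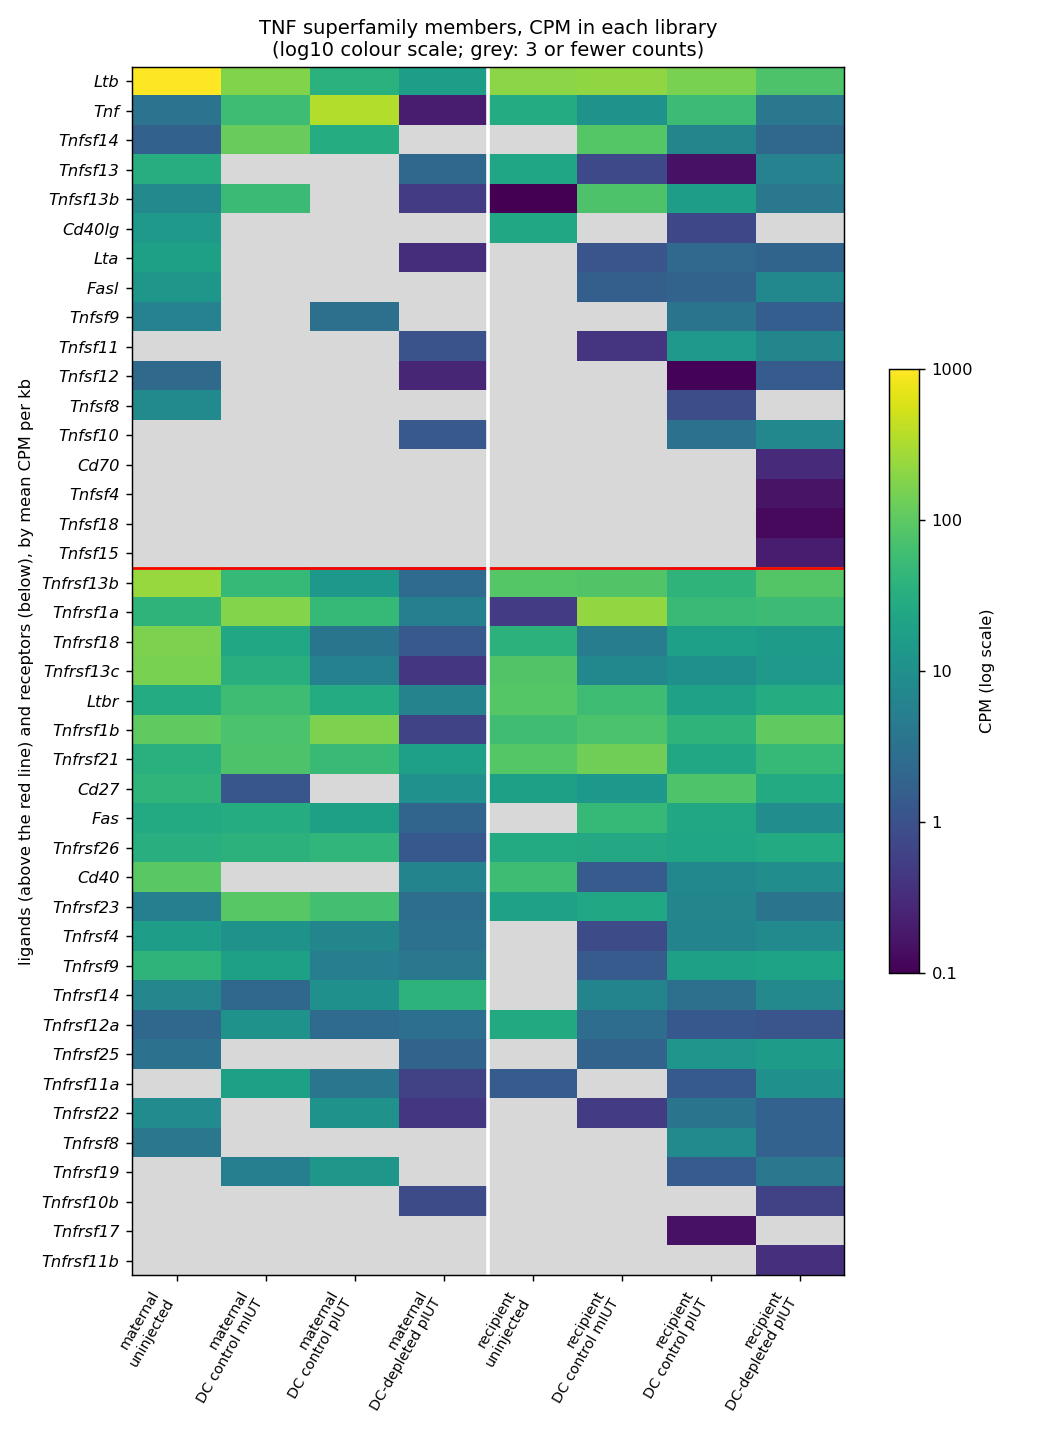
CPM of the 41 members (rows, ligands above the red line and receptors below, ordered by mean CPM per kb) in the 8 libraries (columns), on a log colour scale. Grey cells hold 3 or fewer counts, and the ligands fill fewer libraries than the receptors.

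In maternal cells more members were lower than higher in each comparison with uninjected pups. In DC control mIUT 8 of 32 members tested were higher (25%, against 17.9% of all genes tested) and 16 were lower (50%, against 36.4%). In DC control pIUT 5 of 32 were higher (15.6%, against 24.2%) and 16 lower (50%, against 23.7%). In DC-depleted pIUT 5 of 34 were higher (14.7%, against 23.5%) and 24 lower (70.6%, against 26.1%). The median log2 difference of the members was -1.99, -2.17 and -3.83 in these comparisons, beside -0.60, 0.05 and -0.02 over all genes tested. All 3 share the uninjected library. Of 31 members tested in all 3 comparisons, 12 (38.7%) were lower in each, against 12.1% of all genes so tested: Cd40, Cd40lg, Fasl, Lta, Ltb, Tnfrsf8, Tnfrsf13b, Tnfrsf13c, Tnfrsf18, Tnfsf8, Tnfsf12 and Tnfsf13. Of these, only Ltb, Tnfrsf13b, Tnfrsf13c and Tnfrsf18 reached 10 counts in all libraries. The others had 3 or fewer counts in both maternal DC control libraries, where lower was the 1 call they could get. Their calls there are no support for a fall. Such genes are also within the shares of members and of all genes above. Leaving out the mIUT library, which lacked many genes found elsewhere, 14 of 31 were lower in both pIUT comparisons (against 15.7%). Tnfrsf11a was the 1 member higher in all 3. With 0 counts in maternal uninjected cells, higher was the 1 call it could get, and in DC-depleted pIUT it had 20 counts. In maternal DC-depleted against DC control pIUT, 9 of 30 members were higher (30%, against 24.9%) and 14 lower (46.7%, against 28.2%), with a median of -1.50 beside -0.07 over all genes. Scaling by total counts alone moved the share of all called genes that were higher there from 46.9% to 36.3%.

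In recipient cells most called members were higher than in uninjected pups, as were most called genes. In DC control mIUT 12 of 28 members were higher (42.9%, against 45.0% of all genes tested) and 7 lower (25%, against 17.6%). In DC control pIUT 18 of 33 were higher (54.5%, against 45.3%) and 6 lower (18.2%, against 13.3%). In DC-depleted pIUT 21 of 37 were higher (56.8%, against 47.1%) and 7 lower (18.9%, against 10.9%). Few of the higher members had 10 counts or more in recipient uninjected cells: Tnfrsf1a (24 counts) in each comparison, Cd27 (898) in DC control pIUT and Tnfrsf11a (70) in DC-depleted pIUT. All others had 0 to 4 counts there and entered through the treated library alone, where higher was the 1 call they could get. The counts of higher members are thus no support for a rise. The medians of the members were 0.33, 3.84 and 2.80, beside 1.21, 1.35 and 1.69 over all genes. The recipient uninjected library, which these comparisons share, is the one that lacked most genes found elsewhere. With recipient DC control mIUT as the baseline in its place, a choice made after the data were seen, 15 of 33 members were higher in DC control pIUT (against 20.3% of all genes) and 5 lower (against 13.9%), and 11 of the higher and 1 of the lower were also called against uninjected pups. On that baseline 14 of 36 were higher in DC-depleted pIUT (against 25.2%) and 5 lower (against 13%), of which 12 and 1 were called on both. Between recipient DC-depleted and DC control pIUT the members stayed closer: 6 of 38 were higher (15.8%, against 14.3%) and 5 lower (13.2%, against 7.20%), with a median of 0.26 beside 0.10. Scaling by total counts alone moved the split of called members in that comparison from 54.5% higher to 70%, and that of all called genes from 66.6% to 73.2%.

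Between the uninjected libraries, 17 of 31 members were higher in maternal than in recipient cells (54.8%, against 41.2% of all genes tested) and 3 lower (9.68%, against 15.1%). The 3 lower were Tnf, Tnfrsf11a and Tnfrsf12a, of which Tnfrsf11a had 0 counts in maternal cells. Of the 17 higher, only Ltb, Tnfrsf18 and Tnfrsf1a had 10 counts or more in recipient uninjected cells, the library that lacked most genes found elsewhere. The others had 0 to 4 counts there and entered through the maternal library alone, where higher was the 1 call they could get. Their calls are no support for a difference of the family. The median of the members was 2.28, beside 0.79 over all genes.

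**Figure D2:**
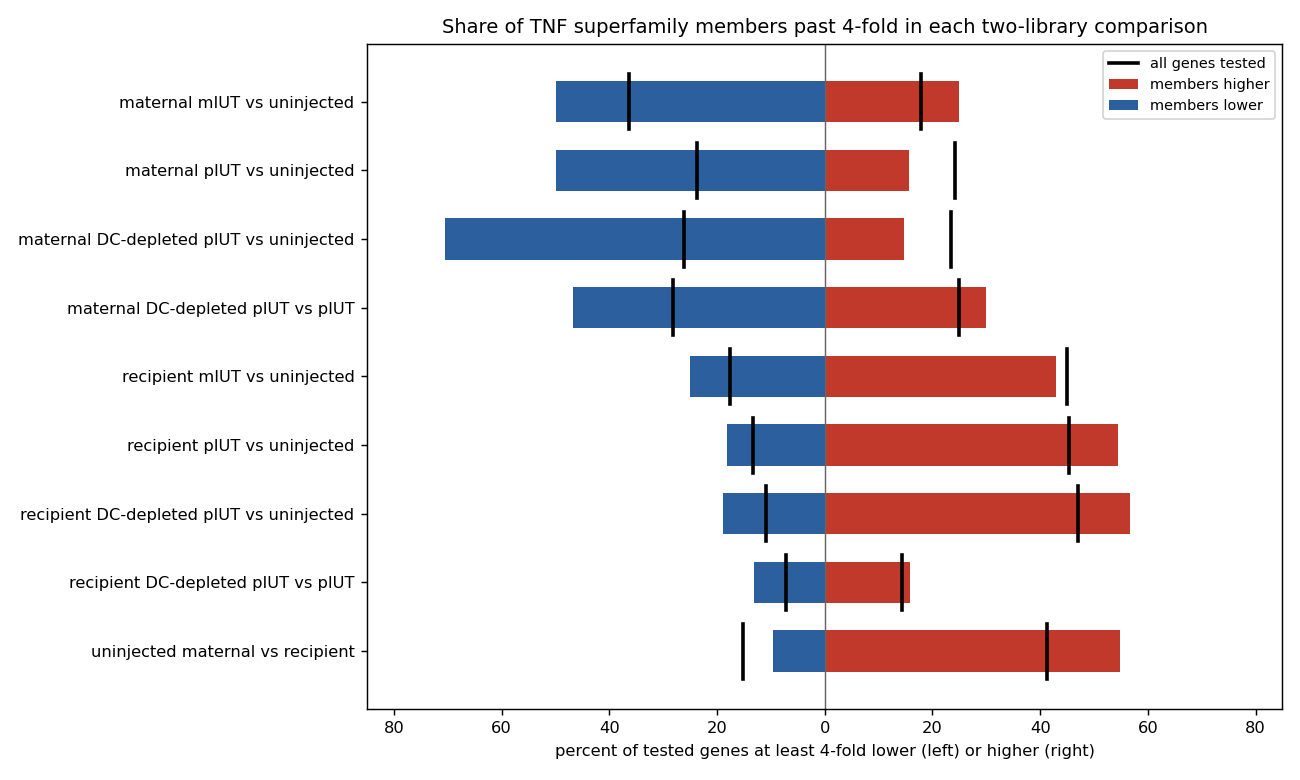
Share of tested members at least 4-fold lower (blue, to the left) or higher (red, to the right) in each of 9 comparisons of 2 libraries, in percent. Black lines mark the same share over all genes tested, which the blue bar of maternal DC-depleted pIUT against uninjected pups (70.6%) passes by the widest margin.

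Tnf, Lta and Ltb, the genes of tumor necrosis factor and the lymphotoxins, lie side by side within 10.9 kb of chromosome 17 (35413382 to 35424327 in GRCm39), yet their levels followed different patterns over the libraries. Ltb, which anchors lymphotoxin to the membrane, stood at 975, 174, 35.4 and 17.6 CPM in maternal cells and at 201, 219, 158 and 75.9 CPM in recipient cells. It was highest in maternal uninjected cells, where it made up 45.6% of all member CPM, and from there 5.62-fold lower after mIUT, 27.5-fold after pIUT with DC control and 55.4-fold after pIUT with DC depletion. In recipient cells Ltb stayed within 4-fold of uninjected pups in all 3 treatments. Tnf, the inflammatory cytokine that names the family, stood at 3.31, 58.2, 343 and 0.212 CPM in maternal cells and at 29.0, 11.2, 54.6 and 4.00 CPM in recipient cells. Maternal DC control pIUT held the most Tnf, 103-fold above maternal uninjected cells, and DC-depleted pIUT the least, with 7 counts against 17342 in DC control pIUT, a 1595-fold difference. Recipient cells showed the same direction between these treatments at a smaller size, with DC-depleted pIUT 13.7-fold below DC control pIUT. Lta, the secreted lymphotoxin, stood at 18.5, 0, 0 and 0.333 CPM in maternal cells and at 0, 1.15, 2.35 and 1.95 CPM in recipient cells. Of the uninjected libraries the maternal one alone had Lta counts, at least 238-fold above maternal mIUT, while recipient DC control pIUT lay at least 37.8-fold above recipient uninjected cells.

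The promoter windows of Ltb, Tnf and Lta are shown because the 3 genes are neighbours with unlike levels, and that of Tnfsf14 because this ligand shared with Tnf the high levels in maternal mIUT and pIUT. They are RefSeq windows of the GRCm38.p6 build, from 250 bases before to 50 after the start of the gene, at chr17:35194257-35194556 (plus strand) for Ltb, chr17:35201958-35202257 (minus) for Tnf, chr17:35205302-35205601 (minus) for Lta and chr17:57194132-57194431 (minus) for Tnfsf14. Of the 41 members 31 had such a window. Capitals mark matches, on either strand, to a kappaB-like motif (GGG, any 3 bases, then TTCC, in 5.6% of all 32544 windows), TGANTCA (AP-1, 7.8%), GAGGAA (PU box, 28.1%) and TGTGGT (Runx core, 16.7%), and no capital match overlaps another here. CANNTG (E-box) was searched too, is in 72.3% of windows and is left in lower case.
Ltb: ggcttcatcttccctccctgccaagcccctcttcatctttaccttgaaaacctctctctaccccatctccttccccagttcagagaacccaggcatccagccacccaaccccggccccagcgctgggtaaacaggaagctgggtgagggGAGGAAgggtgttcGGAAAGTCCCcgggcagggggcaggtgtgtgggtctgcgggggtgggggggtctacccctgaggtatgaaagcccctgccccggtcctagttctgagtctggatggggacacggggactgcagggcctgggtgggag
Tnf: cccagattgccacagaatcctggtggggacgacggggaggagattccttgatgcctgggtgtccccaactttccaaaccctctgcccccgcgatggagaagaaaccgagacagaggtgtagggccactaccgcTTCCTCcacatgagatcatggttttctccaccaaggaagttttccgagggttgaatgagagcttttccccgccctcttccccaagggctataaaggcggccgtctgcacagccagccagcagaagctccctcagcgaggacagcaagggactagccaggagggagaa
Lta: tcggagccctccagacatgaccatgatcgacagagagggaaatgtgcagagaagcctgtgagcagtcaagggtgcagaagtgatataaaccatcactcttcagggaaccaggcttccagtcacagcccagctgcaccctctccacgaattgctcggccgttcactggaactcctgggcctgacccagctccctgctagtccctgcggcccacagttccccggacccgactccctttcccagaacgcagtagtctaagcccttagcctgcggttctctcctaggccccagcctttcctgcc
Tnfsf14: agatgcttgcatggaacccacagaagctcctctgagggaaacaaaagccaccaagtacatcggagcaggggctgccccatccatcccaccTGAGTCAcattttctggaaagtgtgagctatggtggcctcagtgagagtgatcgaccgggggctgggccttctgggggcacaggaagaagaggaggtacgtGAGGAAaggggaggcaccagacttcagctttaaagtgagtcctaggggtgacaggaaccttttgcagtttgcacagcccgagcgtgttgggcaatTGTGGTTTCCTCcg
A kappaB-like match was found in 3 members, Ltb, Tnfrsf9 and Tnfrsf25, and an AP-1 match in 6, Fas, Tnfrsf8, Tnfrsf9, Tnfsf13, Tnfsf13b and Tnfsf14. A match says only that these letters are in the window. Ltb held a kappaB-like match and a PU box, Tnf a PU box alone, Lta none of the 4, and Tnfsf14 an AP-1 match, a Runx core and 2 PU boxes.

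Among the receptors of these ligands, Tnfrsf1a, Tnfrsf1b and Ltbr reached 10 counts in all 8 libraries. Tnfrsf1a (TNFR1, chromosome 6, 125325566 to 125339632), which carries a death domain, stood at 39.8, 181, 47.4 and 5.39 CPM in maternal cells and at 0.496, 228, 50.4 and 54.5 CPM in recipient cells. The low value of recipient uninjected cells, 24 counts, put it 101- to 457-fold below the other recipient libraries, and against recipient mIUT it was lower in both pIUT treatments. Tnfrsf1b (TNFR2), the receptor best bound by membrane TNF, stood at 106, 73.9, 163 and 0.666 CPM in maternal cells and at 59.9, 74.9, 39.5 and 106 CPM in recipient cells. Maternal DC-depleted pIUT lay 244-fold below DC control pIUT, and the level was within 4-fold between all pairs of recipient libraries compared. Ltbr, the lymphotoxin beta receptor of stromal and myeloid cells, stood at 29.1, 58.3, 28.8 and 6.12 CPM in maternal cells and at 88.5, 57.8, 19.6 and 29.6 CPM in recipient cells. In maternal DC-depleted against DC control pIUT, Tnf and all 3 of these receptors were lower together, Tnfrsf1a by 8.79-fold and Ltbr by 4.70-fold. Markers of monocytes and macrophages (8 genes) summed to 238 CPM in maternal DC control pIUT, with Ccr2 at 0, and to 115 CPM with DC depletion, with none at 0. That fall lay in Cd68, with 8646 and 464 counts: the other 7 genes summed to 66.9 and 101 CPM, and 6 of the 8 were higher with DC depletion. Of 9 granulocyte genes 7 were higher with DC depletion and Ltf and Csf3r lower (Csf3r 8591 and 0 counts), and the list summed to 1698 and 10817 CPM. Their part in the difference was not tested.

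Tnfsf14 and its receptor Tnfrsf14 differed from each other. Tnfsf14 (LIGHT, chromosome 17, 57496451 to 57501177), which binds Ltbr as well as Tnfrsf14, stood at 1.77, 119, 30.1 and 0 CPM in maternal cells and at 0.0414, 87.4, 6.95 and 2.17 CPM in recipient cells. It was highest after mIUT in both origins, 67.0-fold above uninjected in maternal cells and 2113-fold in recipient cells (95% interval 584 to 17458, on 2 counts in the uninjected library). Maternal pIUT cells with DC depletion had 0 counts, at least 332-fold below those without. Tnfrsf14 (HVEM) stood at 6.99, 2.22, 10.3 and 38.5 CPM in maternal cells and at 0.0207, 6.28, 2.99 and 7.52 CPM in recipient cells. It was the leading member of maternal DC-depleted pIUT and the 1 gene of these 8 ligands and receptors that was higher there than in uninjected cells, by 5.50-fold, while the other 7 were lower. Most granulocyte markers were highest with mIUT: the 9 genes fixed for this cell type, each at 10 counts or more in both mIUT libraries, summed to 162759 CPM in maternal and 264344 in recipient mIUT, against 1698 to 47380 in the other 6. Ngp, S100a8 and S100a9 lead these sums, and Elane and Mpo, genes of granulocyte precursors, were instead highest in recipient DC-depleted pIUT, with Mpo at 998 CPM in recipient mIUT, 4385 in recipient uninjected cells and 10458 there. The part of these markers in the levels of Tnfsf14, Tnfrsf1a and Tnfsf13b, which are highest in the mIUT libraries, was not tested.

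**Figure D3:**
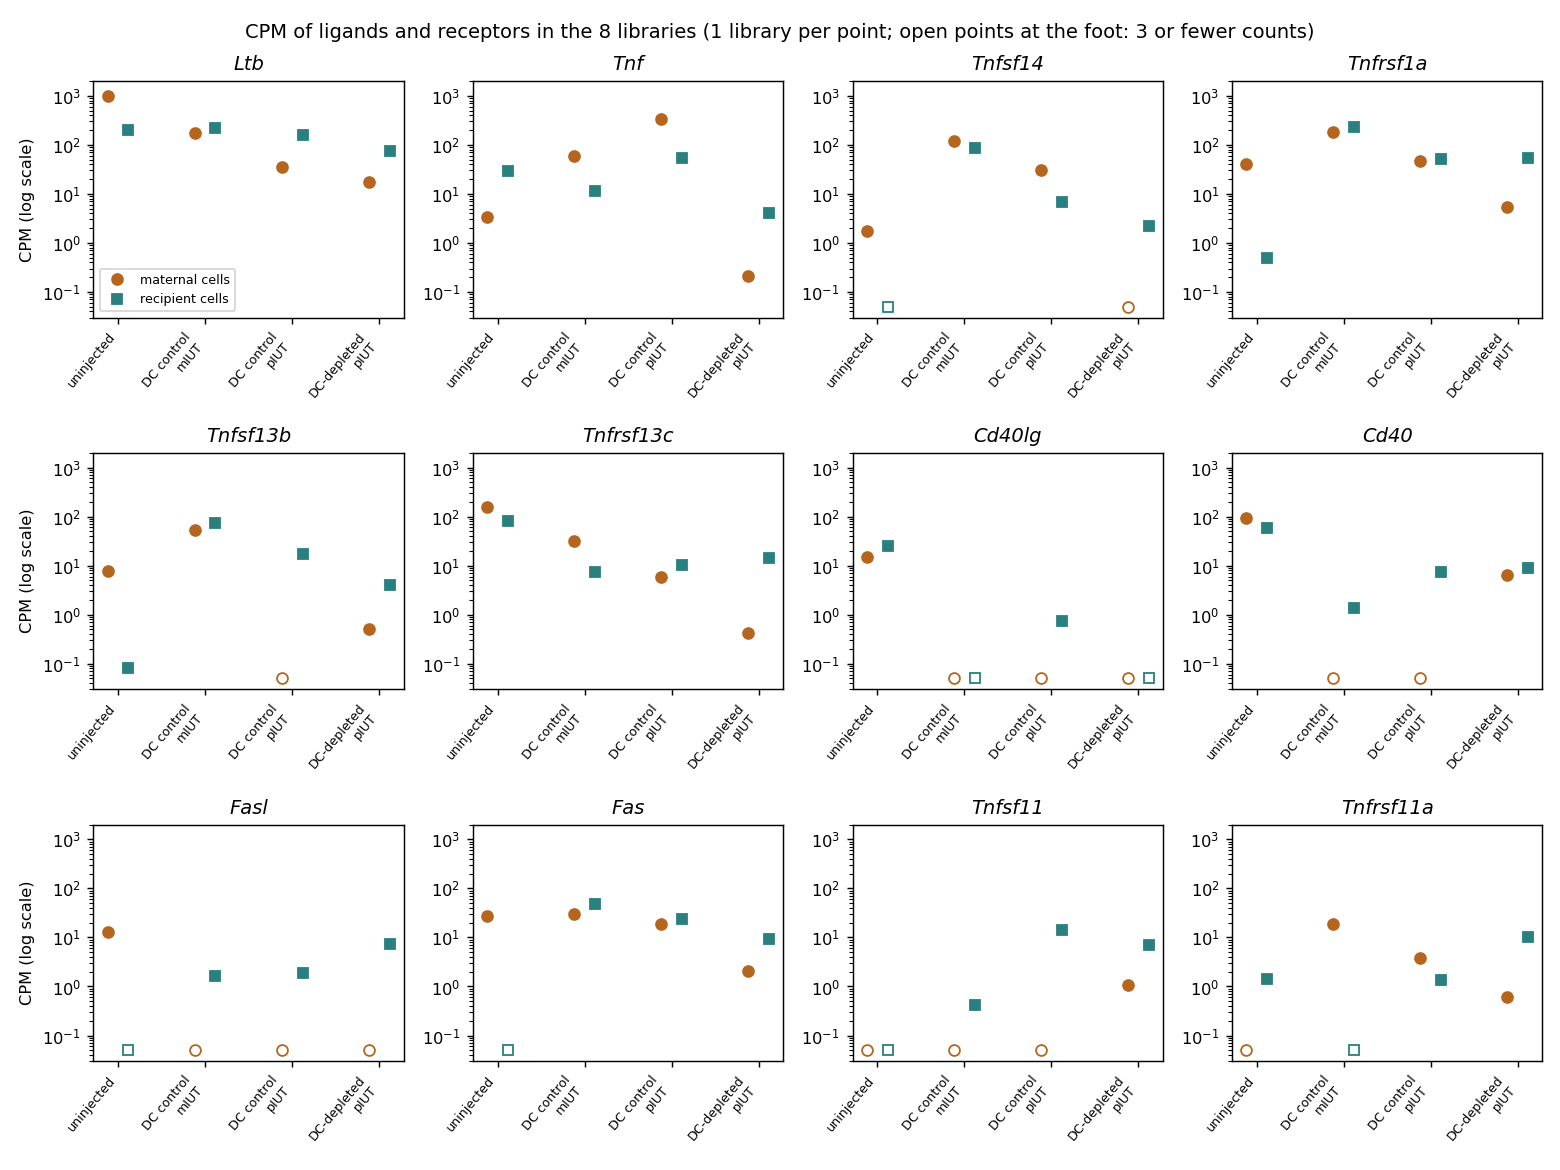
CPM (log axis) of 12 members in maternal cells (brown circles) and recipient cells (green squares) under the 4 treatments, with 1 library per point and no error bar. Open points at the foot hold 3 or fewer counts, and Tnf spans from 0.212 CPM in maternal DC-depleted pIUT to 343 CPM in maternal DC control pIUT.

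The receptors of the B-cell survival factors BAFF and APRIL were highest in uninjected cells, and their ligand BAFF in mIUT cells. Tnfrsf13c (BAFF receptor, chromosome 15, 82105944 to 82108580), on which the survival of mature B cells depends, stood at 159, 31.8, 5.81 and 0.424 CPM in maternal cells and at 83.2, 7.32, 10.2 and 14.3 CPM in recipient cells. It was lower than uninjected in all 6 treated libraries, by 4.99-, 27.3- and 371-fold in maternal cells and by 11.4-, 8.15- and 5.80-fold in recipient cells. Tnfrsf13b (TACI), which binds both ligands, stood at 244, 48.3, 13.6 and 2.51 CPM in maternal cells and at 87.9, 81.6, 40.5 and 84.2 CPM in recipient cells. It followed Tnfrsf13c in maternal cells, 97.0-fold lower in DC-depleted pIUT than in uninjected pups, but stayed within 4-fold in recipient cells. Tnfrsf17 (BCMA), the receptor of plasma cells, had at most 7 counts in any library.

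Tnfsf13b (BAFF, chromosome 8, 10056467 to 10089072), which myeloid and stromal cells make, stood at 7.73, 52.7, 0 and 0.515 CPM in maternal cells and at 0.0827, 75.8, 17.2 and 4.00 CPM in recipient cells. Without DC depletion, pIUT cells of maternal origin held at least 130.4-fold less BAFF than uninjected cells, and those of recipient origin 201-fold more, with 4 counts in the recipient uninjected library. Against recipient mIUT it was lower, not higher, in both recipient pIUT libraries. Tnfsf13 (APRIL) stood at 30.9, 0, 0 and 2.27 CPM in maternal cells and at 23.4, 0.767, 0.155 and 5.84 CPM in recipient cells. APRIL was lower than uninjected in all 6 treated libraries, and in recipient cells DC-depleted pIUT held 37.1-fold more of it than DC control pIUT. Its counts are uncertain, since Tnfsf13 lies within the readthrough gene Tnfsfm13 and is overlapped by an antisense gene, and whether counting used strand is not given in the sources used here.

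The sum of B-cell markers was, like both receptors, highest in maternal uninjected cells, as were 7 of the 8 genes, while Cr2 was highest in recipient uninjected cells. Of the genes listed for B cells, 8 were used, Cd79a, Cd79b and Ms4a1 among them, and they summed to 6627, 306, 41.8 and 30.1 CPM in maternal cells and to 1172, 67.3, 206 and 237 CPM in recipient cells. All 8 had at least 10 counts in maternal uninjected cells, while Pax5 and Cr2 were at 0 in the other 3 maternal libraries. In maternal cells the order of the sums was that of both receptors, but between the pIUT libraries the lower sum with DC depletion lay in Cd79b (32.9 and 13.8 CPM), while Cd79a, Ms4a1 and Cd22 were higher there. In recipient cells the order of the sums was that of Tnfrsf13c, while Tnfrsf13b was within 4-fold in each pair compared. The part of B-cell number in the receptor levels was not tested.

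Cd40 and its ligand were lower in every treated library of both origins than in uninjected pups. Cd40 (chromosome 2, 164897544 to 164914868), the receptor through which B cells and DC take help from T cells, stood at 93.5, 0, 0 and 6.36 CPM in maternal cells and at 57.7, 1.39, 7.35 and 9.08 CPM in recipient cells. Both maternal DC control libraries had 0 counts, at least 1206- and 1576-fold below uninjected cells, and DC-depleted pIUT was at least 107-fold above DC control pIUT. Cd40lg (CD40L), carried by activated CD4+ T cells, stood at 14.7, 0, 0 and 0 CPM in maternal cells and at 25.0, 0, 0.731 and 0 CPM in recipient cells. Of the 6 treated libraries recipient DC control pIUT was the 1 with any Cd40lg count, 34.0-fold below uninjected. Against the mIUT baseline Cd40 was higher in both recipient pIUT libraries. The B-cell markers given above were likewise lower in sum in all 6 treated libraries than in uninjected cells of their origin. Markers of conventional DC (8 genes, of which 1 to 8 had 10 counts or more) summed to 225, 6.66, 34.6 and 81.3 CPM in maternal cells and to 105, 11.1, 124 and 140 CPM in recipient cells. In maternal DC-depleted pIUT Zbtb46 made up 76.5 of the 81.3 CPM, and Itgax had 1 count, against 611 in DC control pIUT. The part of either cell type in the levels of Cd40 and Cd40lg was not tested.

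Of the 12 genes in the costimulatory pairs of T cells, 8 could be tested in each maternal comparison with uninjected pups, and 6 were lower and 0 higher in each, beside 36.4%, 23.7% and 26.1% of all genes lower and 17.9%, 24.2% and 23.5% higher. Of the 8, 4, 4 and 3 had 3 or fewer counts in the treated library and entered through the uninjected library alone, where lower was the 1 call they could get, so these counts are no support for a fall of the group. Of the 4, 4 and 5 with 10 counts or more in both libraries, 2 (Cd27 and Tnfrsf18), 2 (Tnfrsf9 and Tnfrsf18) and 3 (Tnfrsf4, Tnfrsf9 and Tnfrsf18) were lower. In recipient cells 3 of 5 tested were higher after mIUT, 7 of 8 after pIUT with DC control and 6 of 9 after pIUT with DC depletion, beside 45.0%, 45.3% and 47.1% of all genes, and 1, 0 and 0 were lower. The recipient counts are likewise no support for a rise, since 3, 6 and 7 of the tested genes were at 0 in the uninjected library and entered through the treated library alone, where higher was the 1 call they could get. The tested genes with 10 counts or more in recipient uninjected cells were Cd27 and Tnfrsf18, of which Cd27 after pIUT with DC control was the 1 called higher. Cd27, a receptor of resting T cells, stood at 41.0, 1.19, 0 and 10.4 CPM in maternal cells and at 18.6, 13.6, 79.0 and 28.0 CPM in recipient cells. It was highest in recipient DC control pIUT and absent from the counts of maternal DC control pIUT, where DC-depleted pIUT was at least 175-fold higher. Cd27 lies wholly within Vamp1 on the opposite strand, and Tnfrsf4 and Tnfrsf18 are overlapped along their whole length by Gm16008 on the opposite strand, so their counts are uncertain too. In all, 22 members are overlapped by a gene on the opposite strand, 7 of them along their whole length (these 3, Tnfrsf12a, Tnfrsf22, Tnfsf12 and Tnfsf13). The ligand of Cd27, Cd70, had 0 counts in 7 libraries and 17 in recipient DC-depleted pIUT.

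Among receptors of activated T cells, Tnfrsf9 (4-1BB) stood at 40.0, 18.6, 5.14 and 4.06 CPM in maternal cells and at 0, 1.43, 18.7 and 20.6 CPM in recipient cells. Tnfrsf4 (OX40) stood at 17.7, 11.5, 6.82 and 3.12 CPM in maternal cells and at 0, 0.837, 6.47 and 8.32 CPM in recipient cells. Both were thus highest in maternal cells of uninjected pups and, in recipient cells, highest in the pIUT libraries, at least 104-fold (Tnfrsf4) and at least 301-fold (Tnfrsf9) above uninjected in DC control pIUT. Tnfrsf18 (GITR), carried by regulatory and activated T cells, stood at 161, 24.9, 3.64 and 1.30 CPM in maternal cells and at 37.0, 4.88, 17.8 and 15.8 CPM in recipient cells. Unlike Tnfrsf4, its neighbour within 15.1 kb of chromosome 4, it was found in recipient uninjected cells and was higher in no treated library than in its uninjected one. Tnfrsf18 was 44.3-fold lower in maternal DC control pIUT and 124-fold lower in DC-depleted pIUT. Tnfrsf25 (DR3) stood at 3.14, 0, 0 and 1.88 CPM in maternal cells and at 0, 1.85, 12.8 and 15.5 CPM in recipient cells. Tnfrsf8 (CD30) stood at 3.85, 0, 0.0395 and 0 CPM in maternal cells and at 0, 0.0697, 8.17 and 1.82 CPM in recipient cells. Recipient DC control pIUT lay at least 206-fold (Tnfrsf25) and at least 132-fold (Tnfrsf8) above uninjected cells, and from there Tnfrsf8 was 4.47-fold lower with DC depletion.

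The ligands of these receptors were scarcer. Tnfsf9 (4-1BBL) stood at 5.88, 0, 2.99 and 0 CPM in maternal cells and at 0, 0, 3.45 and 1.59 CPM in recipient cells. Tnfsf8 (CD30L) stood at 7.86, 0, 0 and 0 CPM in maternal cells and at 0, 0, 0.886 and 0.0365 CPM in recipient cells. Both had 0 counts in recipient uninjected and mIUT cells, and their recipient levels were highest in DC control pIUT. Tnfsf4, Tnfsf15 and Tnfsf18, the ligands of OX40, DR3 and GITR, had 0 counts in all maternal libraries and at most 9, 11 and 7 counts in recipient cells. T-cell markers were present in every library: the 9 genes fixed for T cells summed to 2091, 501, 135 and 431 CPM in maternal cells and to 553, 726, 4019 and 931 CPM in recipient cells, with Cd4 at 0 in both maternal pIUT libraries. The list was highest in recipient DC control pIUT, as were Cd27, Tnfrsf8, Tnfsf8 and Tnfsf9 among recipient cells, whereas Tnfrsf4, Tnfrsf9 and Tnfrsf25 were highest in recipient DC-depleted pIUT and Tnfrsf18 in recipient uninjected cells. Its part in their levels was not tested.

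Fas, the death receptor of activated lymphocytes, stood at 27.9, 29.9, 18.5 and 2.03 CPM in maternal cells and at 0, 47.9, 24.0 and 9.12 CPM in recipient cells. Fasl, its ligand on cytotoxic T and NK cells, stood at 13.2, 0, 0 and 0 CPM in maternal cells and at 0, 1.60, 1.88 and 7.32 CPM in recipient cells. With DC depletion maternal pIUT cells held 9.10-fold less Fas, whereas Fasl had counts in maternal cells of uninjected pups alone, at least 145- to 222-fold above the treated maternal libraries. In recipient cells both were at 0 in uninjected pups and present after each treatment. Over the 3 treatments the order of recipient levels was opposite, with Fas highest in mIUT and Fasl highest in DC-depleted pIUT. NK-cell markers (5 genes) summed to 310 CPM in maternal uninjected cells and to 1.64 to 60.1 CPM in the treated maternal libraries, and to 46.4, 1.99, 111 and 143 CPM in recipient cells. The 60.1 CPM of maternal mIUT was Klrk1 alone, which stood at 54.0 CPM in maternal uninjected cells. The part of these markers in the levels of Fas and Fasl was not tested. Tnfsf10 (TRAIL) stood at 0.0257, 0, 0 and 1.33 CPM in maternal cells and at 0, 0.0349, 3.10 and 7.44 CPM in recipient cells. Its receptor Tnfrsf10b had 27 counts in maternal and 33 in recipient DC-depleted pIUT and 0 to 2 elsewhere. For the TRAIL pair, DC-depleted pIUT was the highest library in both origins, and Tnfsf10 was at least 22.5-fold higher there than in DC control pIUT in maternal cells.

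Tnfsf11 (RANKL), which drives osteoclast formation and lymph node development, stood at 0, 0, 0 and 1.06 CPM in maternal cells and at 0, 0.418, 14.2 and 6.90 CPM in recipient cells. Its receptor Tnfrsf11a (RANK) stood at 0, 18.8, 3.76 and 0.606 CPM in maternal cells and at 1.45, 0, 1.35 and 10.1 CPM in recipient cells. For RANKL, recipient DC control pIUT was at least 229-fold above uninjected cells. RANK went in opposite directions with DC depletion, 6.18-fold lower in maternal and 7.46-fold higher in recipient cells than in DC control pIUT. The decoy receptor Tnfrsf11b (osteoprotegerin) had 20 counts in recipient DC-depleted pIUT and 0 in the other 7 libraries.

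Tnfrsf12a (Fn14, the receptor of TWEAK), which is induced in injured epithelium and mesenchyme, stood at 2.16, 10.9, 2.51 and 2.91 CPM in maternal cells and at 26.5, 2.72, 1.28 and 1.13 CPM in recipient cells. It was highest in recipient uninjected cells, 9.72- to 23.4-fold above the treated recipient libraries. Epithelial markers (4 genes) summed to 2478 CPM in the same library and to 4.08 to 404 CPM in the other 7, and hepatocyte markers (5 genes) to 10195 CPM against 4.98 to 4266. Within these lists Krt8, Krt18, Afp and Fgb were highest in that library, with Afp at 9055 CPM, while Epcam, Apoa1 and Ttr were highest in maternal mIUT and Cdh1 and Alb in recipient DC-depleted pIUT. Mesenchymal markers (5 genes) were all at 0 counts in recipient uninjected cells and summed to 0.864 to 95.1 CPM in the other 7 libraries. The part of these 3 lists in the level of Tnfrsf12a was not tested. Tnfrsf12a is overlapped along its whole length by Hcfc1r1 on the opposite strand. The ligand Tnfsf12 (TWEAK), which overlaps Tnfsfm13 on the same strand, had 95, 0, 0 and 9 counts in maternal cells and 0, 3, 5 and 79 in recipient cells.

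The remaining receptors, taken apart from the pairs above, were Tnfrsf19, Tnfrsf21, Tnfrsf22, Tnfrsf23 and Tnfrsf26. Tnfrsf23, a decoy receptor of TRAIL, stood at 5.42, 92.2, 63.9 and 2.76 CPM in maternal cells and at 19.4, 24.4, 6.75 and 3.48 CPM in recipient cells. Tnfrsf22, another such decoy, stood at 8.56, 0.0775, 11.1 and 0.424 CPM in maternal cells and at 0, 0.523, 3.45 and 1.84 CPM in recipient cells. In maternal DC-depleted against DC control pIUT, Tnfrsf23 was 23.2-fold, Tnfrsf22 26.1-fold and their neighbour Tnfrsf26 34.8-fold lower. The 3 genes lie within 78.2 kb of chromosome 7 (143161396 to 143239611) and resemble each other, so reads could be split between them. Tnfrsf26 stood at 1.24 CPM in maternal DC-depleted pIUT and at 23.6 to 43.4 CPM in the other 7. Tnfrsf19 (TROY) stood at 0, 5.29, 12.9 and 0 CPM in maternal cells and at 0, 0.0697, 1.44 and 3.90 CPM in recipient cells. With DC depletion its level in maternal pIUT cells was lower by at least 143-fold. Tnfrsf21 (DR6) was found in all libraries, from 18.2 CPM in maternal DC-depleted pIUT to 136 CPM in recipient mIUT, and was not called in any of the 9 comparisons.

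Of 31 genes of TNF receptor signalling and NF-kappaB, 29 could be tested between maternal pIUT cells with and without DC depletion, and 2 were higher and 9 lower, near the 28.2% of all genes that were lower and under the 24.9% that were higher. The median log2 difference was -0.72, beside -0.07 over all genes. The lowest by fold were Tnfaip3, Bcl3 and Rel. Tnfaip3 (A20), an NF-kappaB target that restrains the pathway, had 5470, 6, 9358 and 1 counts in maternal cells and 8097, 285, 15370 and 5260 in recipient cells. Bcl3, an atypical inhibitor of NF-kappaB, had 3624, 2697, 906 and 0 counts in maternal cells and 2850, 1646, 381 and 641 in recipient cells. The NF-kappaB subunit Rel had 6 counts in maternal DC-depleted and 603 in DC control pIUT, a log2 difference of -6.01. The 2 higher genes were the adaptors Traf5, with 198 counts against 0 in DC control pIUT, and Fadd, with 365 against 122. In recipient cells the same contrast gave 0 higher and 1 lower of 31, beside 14.3% and 7.20% of all genes. That gene was Nfkbia, the NF-kappaB inhibitor and target, at 1039, 841, 1429 and 88.9 CPM in maternal cells and at 680, 855, 1674 and 212 CPM in recipient cells. With DC depletion Nfkbia was 16.1-fold lower in maternal and 7.89-fold lower in recipient pIUT cells, the treatments between which Tnf was also lower in both origins. Against uninjected pups the list had 1 gene of 31 higher and 13, 11 and 16 lower in the 3 maternal comparisons, beside 17.9%, 24.2% and 23.5% of all genes higher and 36.4%, 23.7% and 26.1% lower, the higher gene being the kinase Chuk in each. In recipient cells 10, 8 and 8 of 31 were higher, below the share of all genes (45.0%, 45.3% and 47.1%), and 5, 3 and 3 lower, beside 17.6%, 13.3% and 10.9%. Cyld, a deubiquitinase that restrains NF-kappaB, had the highest fold of the list in each recipient comparison with uninjected pups, from 0 counts in uninjected cells to between 2107 and 2400.

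The 1 comparison with more than a single library on each side is that of maternal with recipient cells over the 4 treatments, in which both cell types of a treatment came from the same pups. By edgeR's quasi-likelihood test with treatment as a block and 3 residual degrees of freedom, 0 of 13353 genes passed an adjusted p of 0.05 (0%) and 273 had an unadjusted p under 0.05. Of the 29 members tested, 0 passed and 0 had an unadjusted p under 0.05. The lowest unadjusted p of a member, 0.133 by this edgeR fit, belonged to Tnfsf11, which was lower in maternal than in recipient cells in 3 of 4 treatments and at 0 in both in the other. With DESeq2 296 genes passed, 0 members among them, and the lowest adjusted p of a member was 0.0574 for Fasl. Ltb had a mean of 300.5 CPM in maternal and 163 CPM in recipient cells but was higher in maternal cells in 1 of 4 treatments, uninjected pups.

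Several members were called in opposite directions in maternal and recipient cells under the same treatment. This held for 6 of 27 members tested in both origins after mIUT, 8 of 31 after pIUT with DC control and 12 of 33 after pIUT with DC depletion, beside 18.9%, 14.3% and 13.5% of all genes tested in both, each relative to its own uninjected library, and for 17 different members in all. Between DC-depleted and DC control pIUT it held for 2 of 30 members, Tnfrsf11a and Tnfsf13b, which are among the 17 (beside 5.83% of all genes). Lta and Fasl were called lower in maternal and higher in recipient cells under all 3 treatments. Both had 0 counts in recipient uninjected cells, and in treated maternal libraries 0 apart from 11 Lta counts with DC depletion. From 0 counts 1 call was possible, so such calls are no support for opposite changes. The same limit, at 3 or fewer counts, holds in both origins for Tnfrsf22 (mIUT), Tnfrsf25 (mIUT, DC control pIUT), Tnfsf8 (DC control pIUT), Tnfrsf8 (both pIUT), and Tnfsf9 and Tnfsf14 (DC-depleted pIUT). In DC-depleted pIUT, Tnfrsf1a stood 7.38-fold lower in maternal and 109-fold higher in recipient cells, and Tnfsf13b 14.9-fold lower and 47.0-fold higher. In DC control mIUT the direction was the other way for Tnfrsf11a, at least 244-fold higher in maternal and at least 13.8-fold lower in recipient cells, and for Tnfrsf12a, 5.03-fold higher and 9.72-fold lower. The contrasts with uninjected pups rest on the uninjected libraries, and of 30 members with 10 counts or more in the maternal one, 11 (36.7%) were at 0 in the recipient one, near the 30.2% of all such genes.

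**Figure D4:**
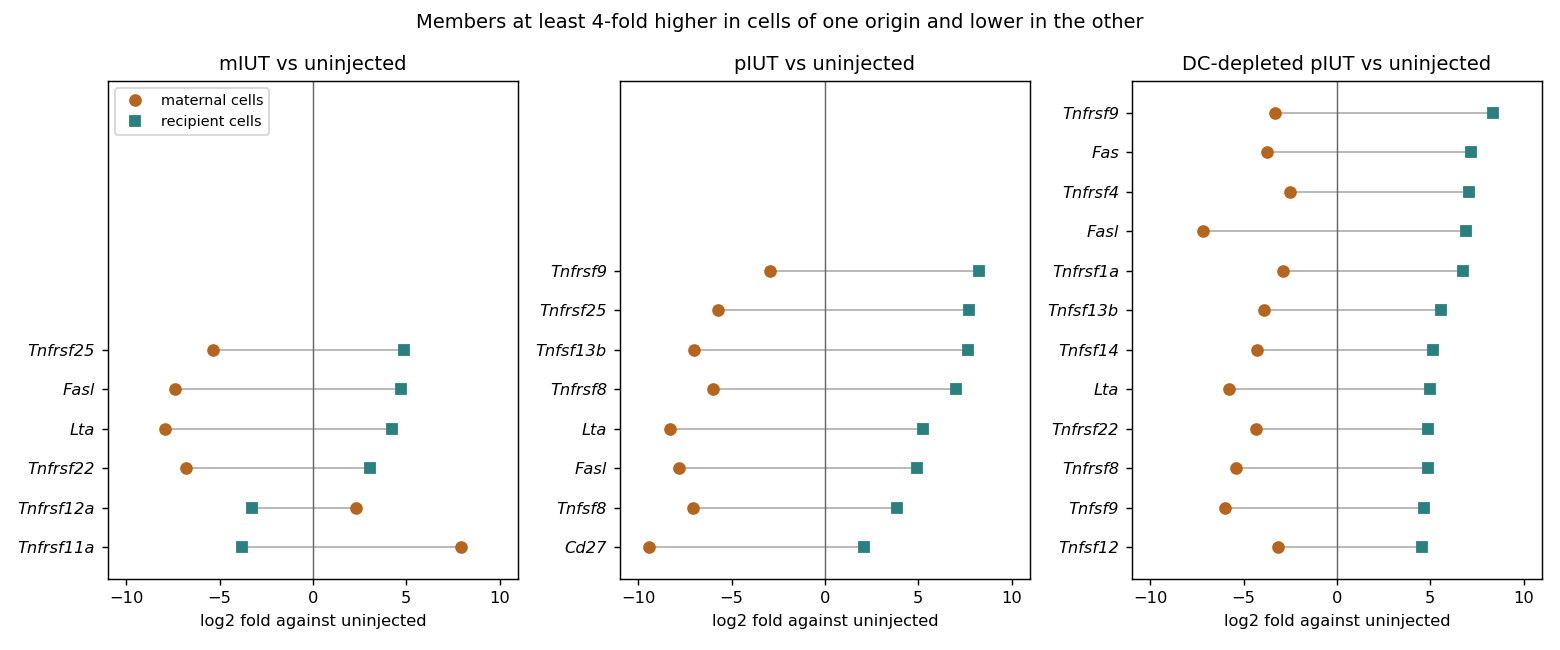
Log2 fold relative to the matching uninjected library for the 6, 8 and 12 members called in opposite directions, in maternal cells (brown circles) and recipient cells (green squares), with counts of 3 or fewer set to 3. All but Tnfrsf11a and Tnfrsf12a in DC control mIUT lie to the left in maternal and to the right in recipient cells.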

How the data were processed

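RNA-seq of 8 pooled libraries was analysed. The authors deposited 1 table of genes with an estimated count for each library, not normalized, which salmon produced within nf-core from GRCm39 and GENCODE (the methods name featureCounts). The submitters' processing notes also name bcl2fastq and StringTie. All 8 columns were used. The clonotype tables were not used here. Estimated counts were rounded, symbols and positions came from a GENCODE annotation of GRCm39 (97.99% of identifiers matched), and normalization used TMM in edgeR 4.0.16 (R 4.3.3). Log2 differences between 2 libraries followed edgeR at an assumed dispersion of 0.4, with counts of 3 or fewer set to 3. The calculation was tested on simulated data. Other tools were DESeq2 1.42.0, matplotlib 3.10.9, pandas 2.3.3, numpy 2.4.6 and scipy 1.17.1 in Python 3.11.15. Treatment paired the maternal and recipient libraries, since both were sorted from the same pups.

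Full values were given for members at 100 counts or more in a library and called in at least 3 of 9 comparisons, their partners, and the 3 leading ligands and receptors. Of the signalling list, the highest and lowest called genes were named, and Nfkbia was added after its values were seen. Another B-cell gene of the lists is not reported here. The members and lists were chosen with earlier results of these data known. The alternatives were the recipient mIUT library as baseline and the order of levels without each library (both added after the data were seen), DESeq2 size factors, total counts, a minimum of 50 counts or none, edgeR's prior count without the floor, DESeq2's Wald test, no block and leaving out each pair of libraries.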

Additional observations from a re-analysis of the deposited data

Results flagged for a closer look

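Members called in opposite directions in maternal and recipient cells under the same contrast were singled out. The values below are the log2 difference in maternal cells minus that in recipient cells, with counts of 3 or fewer set to 3, and the difference was not tested, since each origin has 1 library per treatment. In DC control mIUT against uninjected pups it was -12.1 for Fasl, -12.11 for Lta, -9.86 for Tnfrsf22, -10.24 for Tnfrsf25, 11.72 for Tnfrsf11a and 5.61 for Tnfrsf12a. In DC control pIUT against uninjected pups it was -11.52 for Cd27, -12.72 for Fasl, -13.52 for Lta, -13.41 for Tnfrsf25, -13.06 for Tnfrsf8, -11.2 for Tnfrsf9, -14.68 for Tnfsf13b and -10.89 for Tnfsf8. In DC-depleted pIUT against uninjected pups it was -10.98 for Fas, -14.06 for Fasl, -10.75 for Lta, -9.65 for Tnfrsf1a, -9.22 for Tnfrsf22 and -9.57 for Tnfrsf4. In the same contrast it was -10.28 for Tnfrsf8, -11.67 for Tnfrsf9, -7.68 for Tnfsf12, -9.45 for Tnfsf13b, -9.42 for Tnfsf14 and -10.69 for Tnfsf9. Between DC-depleted and DC control pIUT it was -5.53 for Tnfrsf11a and 5.22 for Tnfsf13b. A negative value means that the gene was lower in maternal and higher in recipient cells.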

How the results depend on the processing

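Of the 18 counts of members called in comparisons of 2 libraries, all stayed within 1.5 times under DESeq2 size factors, with no minimum count and with edgeR's prior count in place of the floor. With a minimum of 50 counts the members higher fell to 1 in maternal DC-depleted pIUT against uninjected, 4 in maternal DC-depleted against DC control pIUT, 6 in recipient mIUT against uninjected and 3 in recipient DC-depleted against DC control pIUT, where those lower fell to 3. Total counts alone also gave 3 lower in the last comparison. Fewer genes are tested under the higher minimum, and the cause under total counts was not tested. That scaling moved the median of all genes by up to -0.58 on the log2 scale, and no called member turned direction under it or under DESeq2 size factors. In the comparison of origins, 0 members passed with the treatment block, without the block, without each pair of libraries in turn (0 to 0), with no filter, with other scalings and by DESeq2. Of 199 member calls, 113 had 3 or fewer counts in the lower library, so their size is limited by depth and their direction was the 1 they could get. With 1 library per group no call has a replicate check. Pooling, the sort by haplotype and the split of uninjected litters between DT and saline cannot be told apart from the treatments.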
